A study of Mus musculus with 6 samples.

Results

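The genes described here are 35 imprinted genes of the mouse, taken as a fixed list of symbols, and their members on the array were all probe sets that the platform annotation pairs with such a symbol alone. Of the 35 genes, 30 had at least 1 probe set of their own, and these made up 61 of the 22626 probe sets tested. Zrsr1, Kcnq1ot1, Rtl1 and Inpp5f had none in the table used, and H19 appeared only on a probe set annotated to Mir675 and H19 together. A further 4 probe sets annotated to Snurf and Snrpn together were kept apart from the members and are described separately. Transcript levels were measured on 6 oligonucleotide arrays of total RNA from mouse CD4+CD25+ cells, separated with magnets to obtain regulatory T cells, the lineage that restrains immune responses under the transcription factor Foxp3. The knockout group (3 arrays) carried a floxed gene for the maintenance DNA methyltransferase (fl-DNMT1) with the Cre recombinase driven by Foxp3 (Foxp3cre), and the control group (3 arrays) was wild type, with C57BL6 given as the strain of all samples. The controls are labelled only as wild type, so that effects of the deletion and of the Cre or floxed allele alone cannot be told apart. Cre is driven by Foxp3, so any separated cell that had not expressed Foxp3 should have kept its Dnmt1 gene, which was not tested. No source used here gives the age or sex of the animals or says that each array had an animal of its own. The p-values therefore cover the spread between these 6 arrays, which may be technical.

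Imprinted genes are expressed mainly or wholly from the copy inherited from the mother or from the father. The choice is marked by DNA methylation laid down in the egg or the sperm at imprinting control regions, and Dnmt1 copies that methylation to the new strand at each cell division. In mouse embryos that lack Dnmt1 the marks are lost, and imprinted genes can become active from both copies or silent on both. Many of the genes control fetal growth and are little expressed in blood cells, and several are imprinted in some tissues and not in others. The comparison asks whether their transcript levels differed in the separated cells when Dnmt1 was deleted under Foxp3. The arrays report the sum of both parental copies and hold no information on DNA methylation or on which copy was active.

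The promoters of 3 paternally expressed genes are shown because their maternal copy is normally methylated at or near the start of transcription, the kind of sequence that Dnmt1 maintains. Plagl1 was chosen as the member above the array median with the largest difference, and Mest and Peg3 as well-known members near the bottom of the measured range. Each is the 250 bases upstream of a start site from RefSeq (GRCm38.p6), read 5′ to 3′ on the gene's strand, with the CpG sites, at which methylation is copied, in capitals. Plagl1 lies on the plus strand (chr10:13090582-13090831), Mest on the plus strand (chr6:30737800-30738049) and Peg3 on the minus strand (chr7:6730420-6730669).
Plagl1: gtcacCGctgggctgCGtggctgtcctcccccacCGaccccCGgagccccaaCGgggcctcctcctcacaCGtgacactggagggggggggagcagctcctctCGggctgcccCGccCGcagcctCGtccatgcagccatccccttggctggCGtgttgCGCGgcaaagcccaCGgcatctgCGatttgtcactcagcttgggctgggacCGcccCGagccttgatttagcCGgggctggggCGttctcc
Mest: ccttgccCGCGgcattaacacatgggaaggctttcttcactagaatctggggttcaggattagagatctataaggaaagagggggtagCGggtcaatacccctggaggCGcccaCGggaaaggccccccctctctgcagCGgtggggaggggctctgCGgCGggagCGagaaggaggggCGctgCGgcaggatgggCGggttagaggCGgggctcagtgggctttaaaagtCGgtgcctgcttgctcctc
Peg3: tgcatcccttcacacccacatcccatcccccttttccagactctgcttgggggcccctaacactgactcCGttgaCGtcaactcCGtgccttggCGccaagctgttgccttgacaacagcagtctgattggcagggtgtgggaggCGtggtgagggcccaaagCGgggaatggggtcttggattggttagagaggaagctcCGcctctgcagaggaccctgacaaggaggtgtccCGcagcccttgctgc
The Plagl1 stretch held 19 CpG sites, that of Mest 14 and that of Peg3 8. RefSeq starts of 29 of the 35 genes were used, giving 44 stretches of this length, some of which overlap. Impact, a paternally expressed member above the array median in wild type, was not among these 29, so the figures for the 44 leave it out. Member starts on the chromosome that holds Impact were set aside, while the stretches of all genes kept that chromosome. The median of the 44 was 9 CpG sites, against 6 over all 32841 stretches. The letters TGCCGC or, on the other strand, GCGGCA, which the imprint-protecting protein Zfp57 binds when methylated, stood in 6 of the 44 (13.6%) and in 8.68% of all stretches, and among the 3 shown they stood in those of Plagl1 and Mest. Which start gave rise to the transcripts that the probe sets detect was not tested.

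Dnmt1 was lower in the knockout on both of its probe sets without passing the test, and the arrays also differed in markers of other cells. The brighter Dnmt1 probe set read 9.56, 9.43 and 9.50 in wild type and 8.67, 8.89 and 9.34 in knockout replicates 1, 2 and 3, on the log2 scale of the deposited values (limma adjusted p = 0.162). The position of these probes relative to the deleted part was not given, so they do not check the deletion. Foxp3 read 9.47 to 9.51 in wild type and 9.28, 8.82 and 8.43 in the knockout (adjusted p = 0.151), and 16 of 18 measured Treg genes lay above the array median on all wild type arrays. Of these 18, 3 fell, with list means of 8.26 to 8.36 in wild type and 8.25, 8.07 and 7.87 in the knockout. Of 16 measured neutrophil markers 9 rose, and the list mean lay at 5.77 to 6.12 in wild type and at 7.60, 9.59 and 8.23 in knockout replicates 1, 2 and 3. Of 14 monocyte and macrophage markers 3 rose (list mean 5.34 to 5.77 in wild type, 6.08 to 6.47 in the knockout), and of 11 NK and CD8 markers 2 rose (7.33 to 7.55, then 7.54 to 8.26). None of 11 T cell markers passed (0), with list means of 9.33 to 9.47 in wild type and 9.49, 9.15 and 9.03 in knockout replicates 1, 2 and 3. Also 0 passed among 9 B cell (5.80 to 7.07, then 5.60 to 6.43), 7 erythroid (3.90 to 4.06, then 4.38 to 4.92), 7 platelet (4.30 to 4.43, then 4.45 to 4.56), 14 proliferation (6.75 to 6.95, then 6.75 to 7.48) and 11 stromal and endothelial markers (3.65 to 3.68, then 3.66 to 3.76). Below the 25th percentile on all wild type arrays were Cd14 of the monocyte list, Hba-a1 and Epb42 of the erythroid, Ppbp of the platelet, Tyms of the proliferation and Col3a1, Pdgfra, Cdh5 and Tek of the stromal list. In a bulk sample, fewer cells of a type and less RNA per cell cannot be told apart. The array medians were 5.70 to 5.77. Precision is limited by having 3 arrays a group.

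None of the 61 imprinted gene probe sets passed the test in either direction (0 at a limma adjusted p under 0.05). Over all probe sets 1.68% passed, 1.19% as higher and 0.486% as lower in the knockout, so that a count of 0 among 61 lies near the background and is no result about these genes. At an unadjusted p under 0.05 there were 3 of 61, Nnat, Plagl1 and Ube3a, all lower in the knockout, where 16.6% of all probe sets reached that level. The knockout and wild type values did not overlap for 6 of the 61, against 23.4% of all probe sets. They were lower for Nnat, Plagl1 and a Ube3a probe set, and higher for a Meg3, a Slc22a18 and a Slc38a4 probe set. Most of the 61 were dim, and both shares are smaller among dim probe sets. Of all 11623 probe sets not above the median in wild type, 16.5% had no overlap and 12.5% an unadjusted limma p under 0.05. For the 54 imprinted gene probe sets of that class these counts were 4 and 1. Differences, given as knockout minus wild type, were positive for 30 and negative for 31 of the 61, with a median of -0.01, beside -0.02 over all probe sets.

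The intervals show how large a change these arrays leave room for. The upper limit of the 95% interval of the difference lay below 1, a doubling on the deposited scale, for all 61 imprinted gene probe sets, the highest being 0.65 for a Rasgrf1 probe set. The whole interval lay between -1 and 1 for 60 of them, the exception being the brighter Plagl1 probe set with a lower limit of -1.17, and for 96.0% of all probe sets. RMA, the method behind the deposited values, compresses dim signals, so that these limits hold for the deposited values and understate the room for change in transcripts near the bottom of the range.

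**Figure D1:**
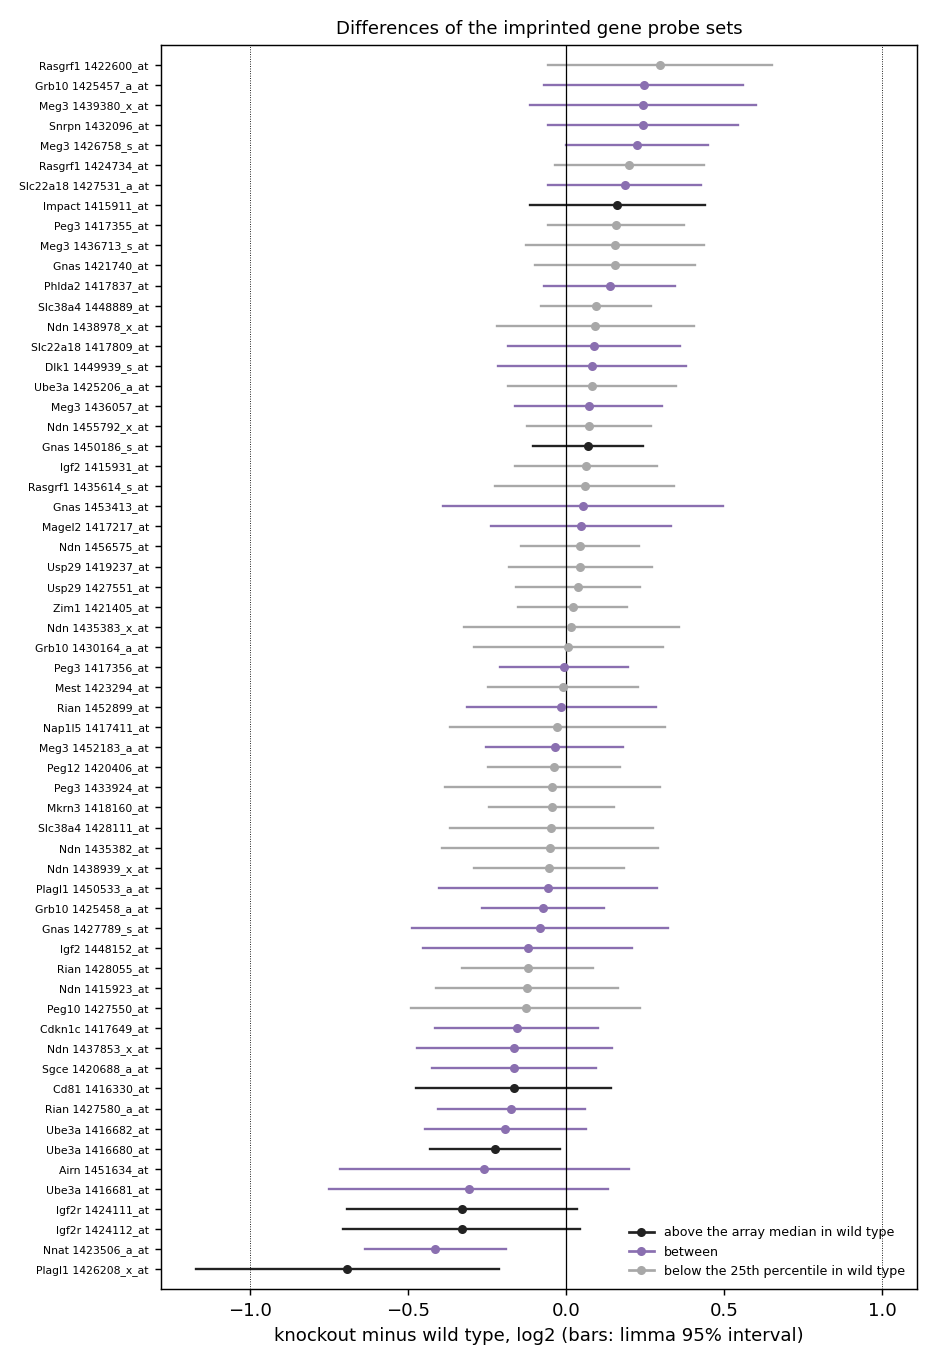
Difference in log2 RMA expression, knockout minus wild type, for each of the 61 imprinted gene probe sets (points), with limma 95% intervals (bars) and colours for the level in wild type. Dotted lines mark -1 and 1, and the Plagl1 probe set at the bottom (-0.69) is the one whose interval crosses -1.

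Most imprinted genes were dim in these cells. In wild type, 6 of the 30 genes (20.0%) had a probe set above the array's median on all 3 arrays, against 54.4% of all 12393 genes with a symbol. These were Gnas, Igf2r, Cd81, Ube3a, Plagl1 and Impact. Snrpn was not counted among them, though a pair of probe sets annotated to Snurf and Snrpn together lay above the median on all 3 arrays. At the other end, 9 genes (30.0%, against 18.4% of all genes) had every probe set below the 25th percentile of each wild type array, a level of 3.68 to 3.72. These were Usp29, Zim1, Mest, Mkrn3, Peg12, Peg10, Nap1l5, Slc38a4 and Rasgrf1. The remaining 15 lay between, and with the 40th percentile in place of the median 11 genes in all were in the upper class. On the knockout arrays 4 genes fell in another class, which can turn on a single value near a boundary. Slc22a18 was above the median, Rasgrf1 was out of the lowest class, and Peg3 and Nnat were in it. Rasgrf1 passed the 25th percentile on knockout replicate 2 alone, at 3.78 against 3.75 (1435614_s_at). Peg3 had passed it on wild type replicate 2 alone, at 3.73 against 3.72, and that probe set (1417356_at) differed by -0.01. Nnat had passed it on wild type replicate 1 alone, at 3.6786 against 3.6775.

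**Figure D2:**
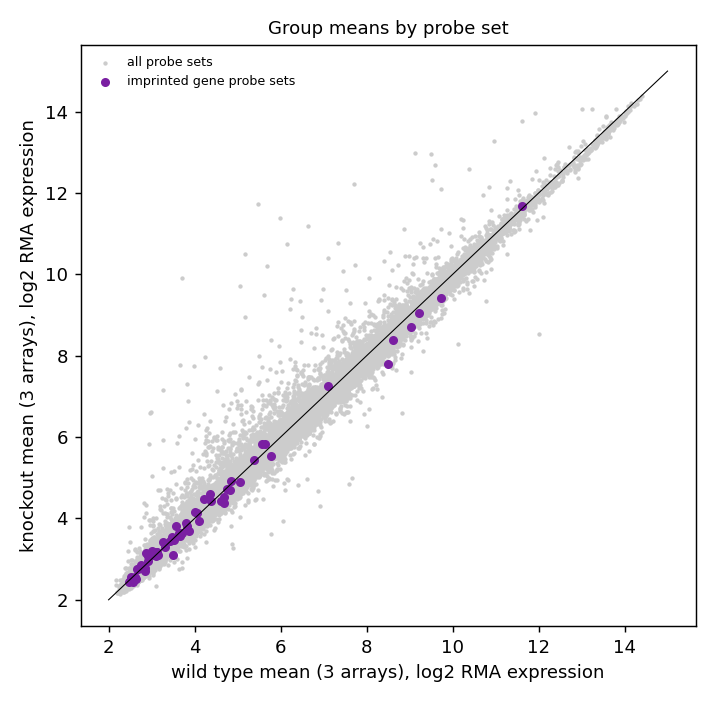
Mean log2 RMA expression of each probe set over 3 wild type arrays (x axis) and 3 knockout arrays (y axis), with all probe sets in grey, the 61 imprinted gene probe sets in purple and the line of equal values. The imprinted gene probe sets crowd at the dim end and lie along the line, the farthest below it being Plagl1 at 8.49 and 7.79.

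Plagl1, a paternally expressed zinc finger transcription factor that restrains proliferation, had the largest difference among the 61 imprinted gene probe sets. Its brighter probe set (1426208_x_at) read 8.53, 8.51 and 8.43 in wild type and 8.25, 7.32 and 7.82 in knockout replicates 1, 2 and 3. Every knockout array lay below every wild type array, but replicate 1 was 0.18 below the lowest of them and replicate 2 was 1.11 below. The means were 8.49 ± 0.05 and 7.79 ± 0.46 (SD, n = 3), 1.62-fold lower in the knockout. The difference of -0.69, with a standard error of 0.21 and a 95% interval of -1.17 to -0.21, did not pass (limma adjusted p = 0.158). The other probe set (1450533_a_at) was near the 25th percentile in both groups, with 3.45, 3.34 and 3.77 in wild type and 3.68, 3.24 and 3.47 in the knockout. By the maker's naming, the ending x_at marks probe sets with probes that can bind other transcripts. The signal of the brighter probe set may therefore not come from Plagl1 alone. The same limit holds for the Snurf-Snrpn, Ndn and Meg3 probe sets with this ending that are described below.

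Igf2r, the maternally expressed receptor that removes insulin-like growth factor 2 from the cell surface, had 2 probe sets whose arrays differed in the same pattern. The brighter (1424112_at) read 9.79, 9.71 and 9.73 in wild type and 9.80, 9.14 and 9.29 in knockout replicates 1, 2 and 3. The other (1424111_at) read 8.95, 9.09 and 9.05 in wild type and 9.07, 8.44 and 8.59 in the knockout. On both, knockout replicate 1 lay at the wild type level and replicates 2 and 3 below it. Each had a difference of -0.33 (SE 0.16), with limma adjusted p = 0.356 for the brighter and 0.346 for the other. Airn, the paternally expressed antisense RNA that silences Igf2r on the paternal copy, read 5.84, 6.10 and 5.42 in wild type and 5.85, 5.39 and 5.35 in the knockout. Its values overlapped and lay around the array median, with a difference of -0.26 (95% interval -0.72 to 0.20).

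Leaving out knockout replicate 1 gave calls for these genes and for no other member. Without it 3 imprinted gene probe sets were lower, among 756 called of all 22626 (3.34%). They were Plagl1 with a difference of -0.92 (limma adjusted p = 0.0298) and the Igf2r pair with -0.53 (0.0360) and -0.51 (0.0439). With each of the other 5 arrays left out in turn 0 were called. Knockout replicate 1 had the lowest Dnmt1 value of all arrays (8.67) and, within the knockout, the lowest neutrophil list mean (7.60) and the highest T cell list mean (9.49). The part of these markers in the Plagl1 and Igf2r values was not tested. The 3 knockout arrays stood in the order of the neutrophil list, or in exactly the reverse order, for 5 of the 7 imprinted gene probe sets above the median and for 40.4% of all probe sets above the median. Over all 61 imprinted gene probe sets this held for 22 (36.1%), against 38.0% of all probe sets. Plagl1 and both Igf2r probe sets ran opposite to the neutrophil list, and Impact and Gnas followed it.

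**Figure D3:**
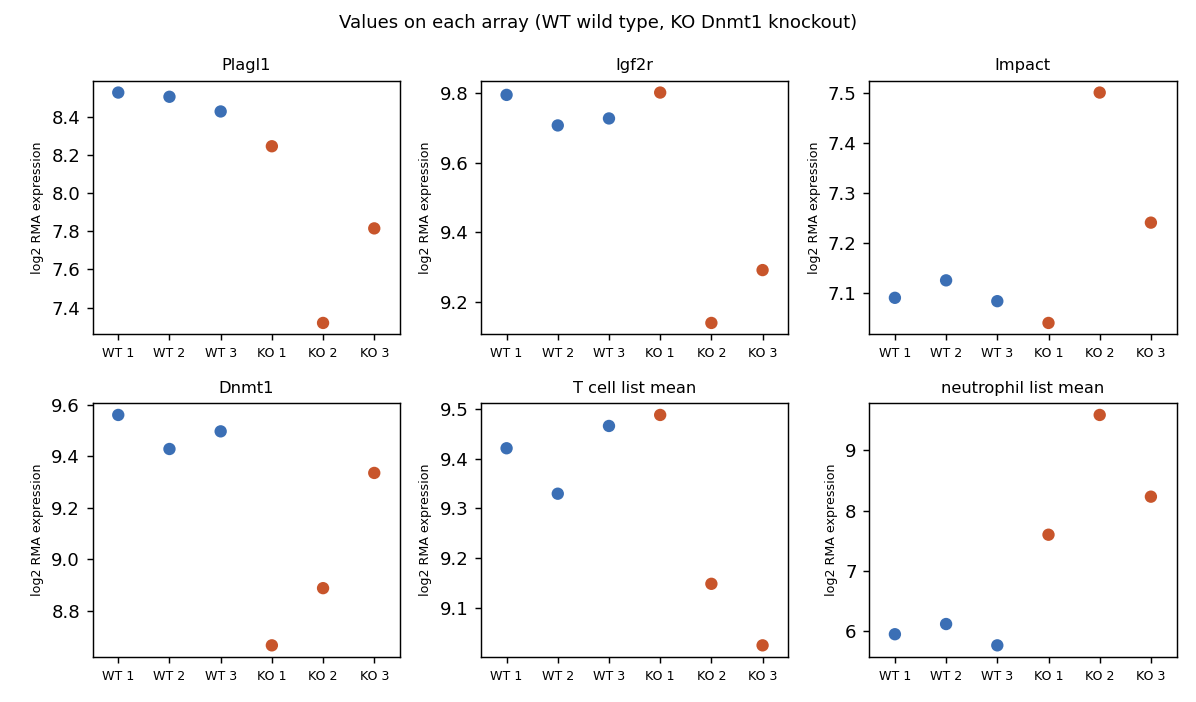
Log2 RMA expression on each of the 6 arrays for the brightest probe sets of Plagl1, Igf2r, Impact and Dnmt1, and for the means of the T cell and neutrophil marker lists, each panel with its own scale. Knockout replicate 1 is at the wild type level for Igf2r (9.80) and lowest for Dnmt1 (8.67), while replicate 2 is lowest for Plagl1 (7.32) and highest for the neutrophil list (9.59).

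Ube3a, a ubiquitin ligase gene that is maternally expressed in neurons and expressed from both copies elsewhere, was lower without passing the test. Its brightest probe set (1416680_at) read 8.71, 8.59 and 8.55 in wild type and 8.30, 8.38 and 8.50 in the knockout. The groups did not overlap, though their nearest values were 0.05 apart, and the difference was -0.23 (SE 0.09, limma adjusted p = 0.259). A pair of dimmer probe sets also had negative differences, -0.31 (95% interval -0.75 to 0.13) and -0.19 (-0.45 to 0.06), and the dimmest had 0.08.

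Gnas, Cd81 and Impact were close to their wild type levels on average, with overlapping values. Gnas encodes the stimulatory G protein alpha subunit in a domain with transcripts from the maternal, the paternal or both copies. Its bright probe set (1450186_s_at) read 11.62, 11.59 and 11.62 in wild type and 11.61, 11.73 and 11.69 in the knockout, a difference of 0.07 (95% interval -0.11 to 0.24). The 3 other Gnas probe sets lay below the array median on average and differed by 0.15, 0.05 and -0.08, and which of the transcripts each detects was not tested. Cd81, a tetraspanin of the lymphocyte surface whose imprinting is known from the placenta, read 9.17, 9.29 and 9.22 in wild type and 9.14, 9.27 and 8.76 in the knockout. Its difference of -0.17 (95% interval -0.47 to 0.14) was -0.02 without knockout replicate 3. Impact, a paternally expressed regulator of the amino acid starvation response, read 7.09, 7.12 and 7.08 in wild type and 7.04, 7.50 and 7.24 in the knockout, a difference of 0.16 (95% interval -0.12 to 0.44).

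The knockout arrays differed among themselves more than the wild type arrays for each of these brighter members. The SD was larger in the knockout for all 7 probe sets above the median, as for 73.1% of all probe sets above the median, and its median over the 7 was 0.26, against 0.05 in wild type. Over all probe sets above the median these were 0.13 and 0.08. Differences were negative for 5 of the 7, with a median of -0.23, where 7009 of 11003 probe sets above the median had a negative difference and their median was -0.06. Of these 11003, 30.7% had groups that did not overlap, as had 2 of the 7.

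**Figure D4:**
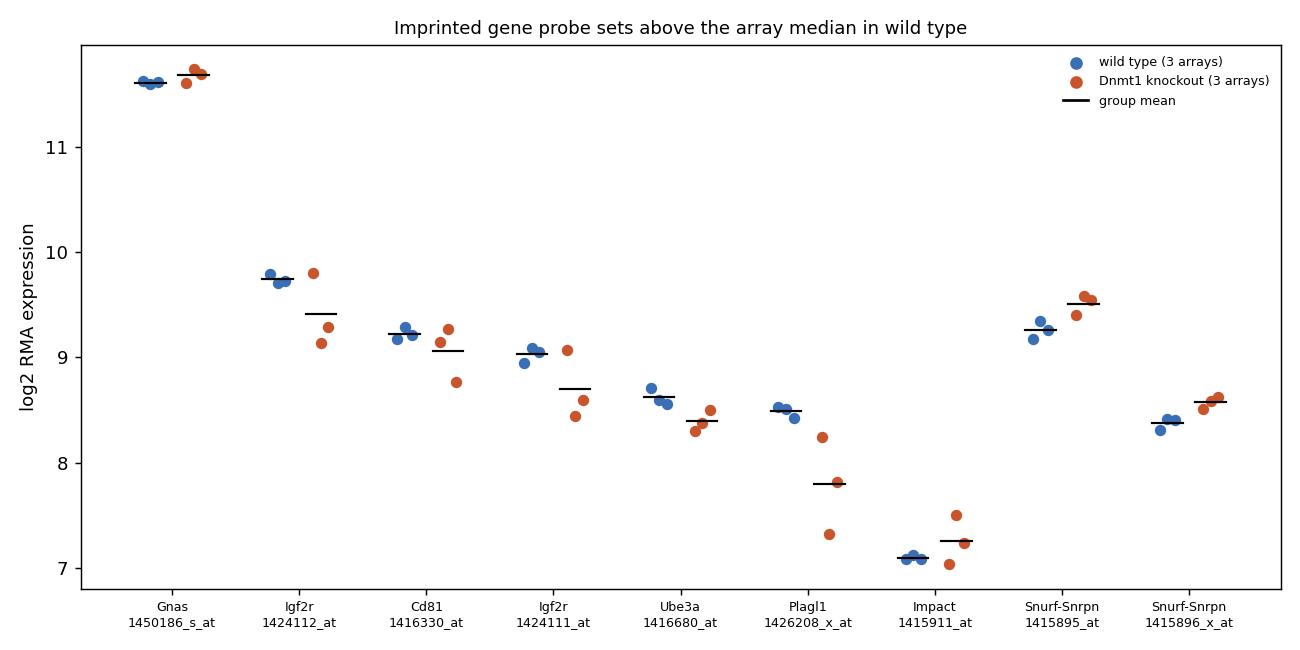
Log2 RMA expression on each array (points) and group means (lines) of the 7 imprinted gene probe sets above the array median in wild type and of the 2 bright Snurf-Snrpn probe sets, with wild type in blue and knockout in orange. The wild type points lie close together, the knockout points are spread for Igf2r, Plagl1 and Impact, and the Snurf-Snrpn values are slightly higher in all 3 knockout arrays.

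Snurf and Snrpn are encoded on a single paternally expressed transcript at the control region of the Prader-Willi and Angelman syndrome domain, and the probe sets annotated to both genes are not counted among the 61. A pair of these was bright and slightly higher in the knockout. The brighter (1415895_at) read 9.17, 9.35 and 9.26 in wild type and 9.41, 9.58 and 9.54 in the knockout, and the difference was 0.25 (SE 0.09, 95% interval 0.05 to 0.45). The other (1415896_x_at) read 8.31, 8.42 and 8.40 in wild type and 8.51, 8.59 and 8.62 in the knockout, and the difference was 0.20 (SE 0.08, 95% interval 0.01 to 0.38). Neither passed (limma adjusted p = 0.214 and 0.270), but every knockout array was above every wild type array on both, as for 9.79% of all probe sets. The knockout SDs were as small as those of the wild type, 0.09 and 0.09 for the brighter. The remaining pair was dim, with differences of 0.02 and -0.26. The probe set annotated to Snrpn alone (1432096_at) read 4.39, 4.10 and 4.19 in wild type and 4.22, 4.60 and 4.59 in the knockout, a difference of 0.24 with overlapping values (95% interval -0.06 to 0.54).

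Apart from Ube3a, the other genes of that domain with probe sets were dim in both groups. Ndn, a paternally expressed MAGE family gene that restrains growth, had 8 probe sets, of which 7 lay below the 25th percentile on all wild type arrays. The remaining one (1437853_x_at) read 4.87, 5.19 and 5.10 in wild type and 4.80, 4.73 and 5.13 in the knockout. Magel2, another MAGE family gene, read 4.53, 4.11 and 4.48 and then 4.37, 4.38 and 4.51, and Mkrn3, a ubiquitin ligase gene, stayed between 2.38 and 2.61 on all arrays. Peg12, a relative of the Frat genes of Wnt signalling, read 2.41 to 2.64 in wild type and 2.42 to 2.47 in the knockout. Over the 16 member probe sets of the domain, Ube3a included, 7 differences were positive and 9 negative. Of the 16, 8 are those of Ndn, mostly at the bottom of the range, and the Snurf-Snrpn probe sets are not in this tally.

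Among the dimmer members, Nnat had the lowest p. Nnat, a paternally expressed proteolipid gene of the developing nervous system, read 3.68, 3.39 and 3.46 in wild type and 3.14, 3.04 and 3.10 in the knockout. The groups did not overlap, and the difference was -0.42 with a standard error of 0.10 (limma adjusted p = 0.0876). All 6 values lay close to or below the 25th percentile of the arrays, where a level is hard to tell from no signal. Rasgrf1, a guanine nucleotide exchange factor gene that is paternally expressed in brain, had 3 probe sets with positive differences. A probe set of it (1422600_at) read 2.60, 3.06 and 2.93 in wild type and 2.90, 3.28 and 3.30 in the knockout, a difference of 0.30 (95% interval -0.06 to 0.65). On another (1424734_at) the values were 2.91, 3.10 and 3.00, then 3.04, 3.25 and 3.32, a difference of 0.20. On both, replicate 1 lay within the wild type range and replicates 2 and 3 above it, at levels below the 25th percentile.

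**Figure D5:**
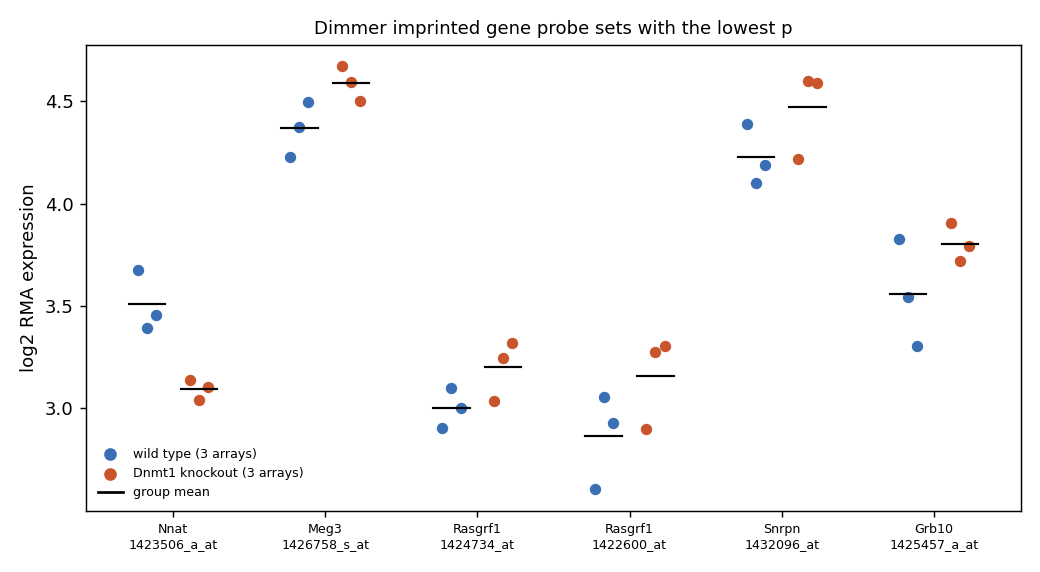
Log2 RMA expression on each array (points) and group means (lines) of the 6 imprinted gene probe sets not above the array median that had the lowest p, with wild type in blue and knockout in orange. Nnat is lower and the Meg3 probe set slightly higher in all 3 knockout arrays, and the others overlap.

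Meg3 and Rian are maternally expressed long noncoding RNAs of the Dlk1-Meg3 domain, whose control region is methylated on the paternal copy, and Dlk1 is its paternally expressed inhibitor of adipocyte differentiation. Of the 5 Meg3 probe sets, 4 had positive differences. The one with the lowest p (1426758_s_at) read 4.23, 4.38 and 4.50 in wild type and 4.67, 4.60 and 4.50 in the knockout, and the difference was 0.22 (SE 0.10, limma adjusted p = 0.303). The groups touched without overlapping, at 4.50 in each. The brightest (1439380_x_at) read 5.22, 5.80 and 5.71 in wild type and 5.85, 5.89 and 5.72 in the knockout, around the array median and with overlapping values. All 3 Rian probe sets had negative differences, -0.17, -0.12 and -0.02, opposite in sign to most of those of Meg3. Dlk1 read 3.66, 3.68 and 4.06 in wild type and 3.82, 3.81 and 4.02 in the knockout.

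Grb10, an adaptor that dampens insulin signalling and is maternally expressed outside the brain, had 3 dim probe sets that differed by 0.24, -0.07 and 0.01. The first (1425457_a_at) read 3.83, 3.55 and 3.31 in wild type and 3.90, 3.72 and 3.79 in the knockout, within the wild type range on replicates 2 and 3. Igf2, the paternally expressed fetal growth factor, differed by -0.12 (95% interval -0.45 to 0.21) and 0.06 (-0.16 to 0.29) on its pair of probe sets. The probe set shared by Mir675 and H19, the maternally expressed RNA beside Igf2, read 3.54, 3.38 and 3.32 in wild type and 3.31, 3.47 and 3.42 in the knockout. Its difference was -0.02 (95% interval -0.23 to 0.19), at a level below the 25th percentile in wild type.

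In the Kcnq1 domain, where the paternally expressed RNA Kcnq1ot1 keeps its neighbours silent on the paternal copy, the maternally expressed members did not differ in a single direction. Cdkn1c, an inhibitor of cell cycle kinases, read 4.82, 4.63 and 4.58 in wild type and 4.71, 4.41 and 4.44 in the knockout (difference -0.16). Phlda2, a brake on placental growth, read 4.03, 3.94 and 4.06 and then 4.02, 4.18 and 4.24 (difference 0.14). The brighter probe set of Slc22a18, a transporter gene, read 5.43, 5.79 and 5.68 in wild type and 5.82, 5.85 and 5.80 in the knockout, just above all wild type arrays, with a difference of 0.18 (SE 0.10, limma adjusted p = 0.428). Over the 5 member probe sets of the domain, Cd81 included, 3 differences were positive and 2 negative. Kcnq1 itself and further genes of the domain belong to the list of other imprinted genes below and are not in this tally.

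Paternally expressed genes with a promoter in a region methylated on the maternal copy include Plagl1, Nnat, Airn, Impact and Snrpn, described above. Over 12 such genes and 17 probe sets, 6 differences were positive and 11 negative, with a median of -0.03. Mest, an alpha/beta hydrolase family gene, read 3.47, 3.23 and 3.25 in wild type and 3.38, 3.17 and 3.37 in the knockout, a difference of -0.01 (95% interval -0.25 to 0.23). Peg3, a zinc finger gene, had differences of 0.16, -0.01 and -0.04 on its 3 probe sets, with upper limits of 0.37, 0.20 and 0.30. Its neighbours Usp29, a protease gene of the ubiquitin system, and Zim1, a maternally expressed zinc finger gene, differed by 0.02 to 0.04. Peg10, a gene derived from a retrotransposon, and Sgce, which encodes epsilon-sarcoglycan, share a control region and had differences of -0.13 and -0.17. Nap1l5, a nucleosome assembly family gene, differed by -0.03. Slc38a4, an amino acid transporter gene, differed by 0.09 and -0.05 on its pair of probe sets. The first of these read 2.70 to 2.80 in wild type and 2.83 to 2.89 in the knockout without overlap. Of all 28 imprinted gene probe sets below the 25th percentile in wild type, 17 had positive and 11 negative differences, with a median of 0.03, beside 0.01 for the 5084 probe sets of that class.

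The members were also grouped by the parental copy that is expressed where the gene is imprinted, with no test between the groups. Ube3a and Cd81 count as maternally and Rasgrf1 as paternally expressed, though their imprinting is described above for other tissues. Which copy was active in these cells was not measured. The 34 probe sets of 19 paternally expressed genes had a median difference of -0.01 with 16 positive, and the 23 of 10 maternally expressed genes had -0.02 with 11 positive. Of the 14 genes with several probe sets, 6 had differences of a single sign on all of them.

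Of 48 other imprinted genes in a list drawn up for this comparison, 32 were measured on 47 probe sets, of which 1 rose and 0 fell (1.68% of all probe sets were called). A single call among 47 lies near that background. The one that rose was Gatm, an enzyme of creatine synthesis whose imprinting is known from the placenta, from 3.97, 3.70 and 3.79 in wild type to 4.37, 4.87 and 4.61 in the knockout. It was higher by 0.80 with a standard error of 0.14 (limma adjusted p = 0.0396). Among the knockout arrays its lowest and highest values were on the same arrays as those of the neutrophil list (7.60, 9.59 and 8.23), whose part in it was not tested. The call did not hold when any array other than knockout replicate 1 was left out (adjusted p 0.0571 to 0.168). Kcnq1, a potassium channel gene, had 4.15, 3.91 and 4.05 in wild type and 3.62, 3.53 and 3.67 in the knockout, a difference of -0.43 that did not pass (adjusted p = 0.0699). Ddc, the aromatic amino acid decarboxylase gene, had 5.69, 5.92 and 6.005 and then 6.23, 6.39 and 6.53, a difference of 0.51 (adjusted p = 0.0812). Qpct, which encodes glutaminyl cyclase, had 5.92, 5.98 and 6.02 and then 6.27, 6.84 and 6.61, a difference of 0.60 (adjusted p = 0.0877). The list had 25 positive and 22 negative differences, and 15 of its 47 probe sets (31.9%) had groups that did not overlap, against 23.4% of all probe sets.

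A list of 23 genes was drawn up around the maintenance of imprints, and it also holds the Tet genes, whose products act against DNA methylation. Of the 23, 19 were measured on 44 probe sets, of which 1 fell and 0 rose. Over all probe sets 0.486% fell and 1.19% rose. A single call among 44 lies near that background, so that this count is no result about the list. The one that fell was a probe set of Dnmt3a, a de novo DNA methyltransferase gene (1460324_at), from 7.10, 6.84 and 6.81 in wild type to 6.08, 5.98 and 6.16 in the knockout. Its difference was -0.84 (SE 0.10, limma adjusted p = 0.0160), and leaving out any 1 of the wild type arrays ended the call (adjusted p 0.0570 to 0.0642). Other Dnmt3a probe sets differed by -0.40 (adjusted p = 0.0889), -0.39 (0.113), -0.21 (0.287) and 0.01 (0.974). A probe set of Arid4b, a chromatin protein gene, read 8.91, 8.94 and 8.92 in wild type and 8.71, 8.68 and 8.68 in the knockout, a difference of -0.23 (adjusted p = 0.163). Over the list 28 differences were negative and 16 positive, with a median of -0.11. The groups did not overlap for 20 of 44 probe sets, against 23.4% of all probe sets and 30.7% of all those above the median. Of these 20, 19 were lower in the knockout. Among all probe sets, 5300 had no overlap and 3086 of those were lower, which is 13.6% of all 22626 tested. At an unadjusted limma p under 0.05 there were 15 of 44 (34.1%), against 16.6% of all and 21.1% of all those above the median. Many probe sets of the list lay above the median in wild type. These tallies include both probe sets of Dnmt1, the deleted gene, and several probe sets of some other genes. Uhrf1, which brings Dnmt1 to newly copied DNA, had 8.17, 7.89 and 7.90 in wild type and 7.90, 7.74 and 8.77 in the knockout, and Zfp57 stayed between 3.44 and 3.76 on all arrays.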

How the data were processed

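The 6 arrays of CD4+CD25+ cells, 3 wild type and 3 Dnmt1 knockout by the submitters' genotype labels, were compared. The authors deposited log2 values per probe set that came from RMA, as the submitters' processing notes name it. RMA corrects the background, normalises between arrays and combines probes, so a change in the total RNA of a cell would not show, and dim signals are compressed. No source used here gives its version or settings.

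Of 22690 probe sets, 64 controls were left out. A platform annotation table gave 1 symbol to 20380, several to 691 and none to 1555. Symbols were checked through gene IDs in RefSeq tables of GRCm38.p6, and 0 changed. Groups were compared with limma 3.58.1 (lmFit, eBayes) in R 4.3.3, two-sided, adjusted by Benjamini-Hochberg over all probe sets and called under 0.05. The script was tested on simulated data. Probe sets were classed against each wild type array's median and 25th percentile. All 6 values were given for members above the median and the 6 other member probe sets with the lowest p, and from the other 2 lists for called genes and up to 3 with the lowest p. Values of other members, Uhrf1, Zfp57 and the Snurf-Snrpn pair were added after they were seen. The members and lists were chosen with earlier results of these data known. Alternatives were the brightest or mean probe set per gene, a dim filter of 40%, quantile normalisation, median centring, array weights, a trended robust variance, a size threshold of 1, a replicate block, other level boundaries and each array left out. Plots used Python 3.11.15 and matplotlib 3.10.9.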

Additional observations from a re-analysis of the deposited data

How the results depend on the processing

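The count of imprinted gene probe sets called was 0 under every alternative run except without knockout replicate 1, so that it ranged from 0 to 3 with an array left out. Over all probe sets the count of 380 (1.68% of 22626) became 156 with a size threshold of 1 and 29 to 756 with an array left out. With the brightest probe set per gene it was 236 (1.90% of 12393). Whether the numbers in the titles pair the arrays cannot be decided from the deviations of so few arrays from their group means. The correlations of these deviations were -0.08, 0.11 and -0.01 for equal numbers and -0.11 to 0.12 for unequal numbers. With the numbers as a replicate block 218 probe sets were called, 0 of them members. The replicate block also ended the call of Gatm (adjusted p = 0.0981). The count of 1 among other imprinted genes became 0 without the dimmest 40% of probe sets, with the replicate block and with the size threshold, and ranged from 0 to 4 with an array left out. The count of 1 in the imprint maintenance list became 0 with the brightest probe set per gene and with the size threshold. It ranged from 0 to 3 with an array left out. The median difference of the members was -0.165 without the dimmest 40% of probe sets, which left 13 of 61, beside -0.0406 over all probe sets kept. It was -0.036 with median centring, beside -0.048 over all probe sets, and ranged from -0.0124 to 0.0231 with an array left out. With the 40th percentile as the boundary 11 genes lay in the upper class, and with each wild type array left out 6 to 7. No difference of the brighter members, the 6 dimmer ones with the lowest p, Gatm, Dnmt3a, Dnmt1 or Foxp3 changed sign under the alternatives run. The adjusted p of Plagl1 ranged from 0.0298 to 0.363. Without knockout replicate 3 both Dnmt1 probe sets were called (0.0457 and 0.0294), and without knockout replicate 1 Foxp3 was (0.0204). The number of arrays and the dimness of most members limit what can be detected.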
